A study of Mus musculus with 6 samples.

Results

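Cultures of mouse embryonic fibroblasts carrying replicate number 2 were compared with those carrying replicate number 1, over all 6 of the 6 arrays of a study of Foxd1 in reprogramming. Foxd1 encodes a forkhead transcription factor of embryonic stroma. The arrays held total RNA of fibroblasts that were Foxd1+/+, Foxd1+/- or Foxd1-/-, with 2 arrays per genotype, 1 numbered 1 and 1 numbered 2 in its title. All 6 cultures were kept in medium with 10% foetal bovine serum, were infected on day 0 with Oct4, Sox2 and Klf4 retroviruses and harvested on day 8, so no uninfected culture is among them. The 3 arrays numbered 2 were set against the 3 numbered 1 within each genotype, which gives 3 pairs. Within the Foxd1+/+ pair and the Foxd1+/- pair the 2 arrays also differed in sex-linked transcripts, described below. The titles call the numbers biological replicates, but nothing in the labels tells whether a number marks an embryo, a litter, an infection or an array run, whether cells of several embryos were pooled, or how the Foxd1 allele was made. The p-values below therefore measure the spread between these arrays, and a batch shared by the arrays of 1 number cannot be told apart from a difference between cultures.

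Oct4 (gene Pou5f1), Sox2 and Klf4 are transcription factors that together can turn fibroblasts into pluripotent stem cells over some weeks. Cells that make progress switch off collagens and other mesenchymal genes, divide quickly, gain epithelial junctions and later switch on the pluripotency network. The type I interferons are secreted proteins that act through their receptor, JAK kinases, Stat2 and Irf9 to induce antiviral genes. Interferon gamma has a receptor of its own and induces guanylate-binding proteins, immunity-related GTPases and the machinery that loads peptides on MHC class I molecules. A culture this early is usually a mixture of cells at different stages.

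The values are linear array intensities per gene, in the units of the deposited table, whose lowest value was 19.5. Differences are given on the log2(intensity + 1) scale, arrays numbered 2 minus arrays numbered 1, as the mean of the 3 pairs with the standard error (SE) of the limma fit after the ± sign, and a gene is called where the limma adjusted p is under 0.05. The 4 gene programs moved apart in the same way in each genotype. Interferon and fibroblast genes were higher on the arrays numbered 2, and pluripotency and cell cycle genes were lower. The interferon list had a median log2 difference of 0.74 over 106 measured genes, the fibroblast list 0.28 over 80, the pluripotency list -0.24 over 50 and the cell cycle list -0.34 over 98. The median of all genes was -0.0016. Within the Foxd1+/+, Foxd1+/- and Foxd1-/- pairs the interferon median was 0.54, 0.79 and 0.93. The fibroblast median in the same order was 0.34, 0.23 and 0.29. The pluripotency median was -0.42, -0.07 and -0.30. The cell cycle median was -0.28, -0.17 and -0.51. So the signs were shared by the 3 pairs, but the sizes were not in 1 order: the interferon and cell cycle lists differed most within Foxd1-/- and the pluripotency list within Foxd1+/+, and these differences between pairs were not tested. In bulk RNA, fewer cells of a kind and less RNA per cell cannot be told apart.

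**Figure D1:**
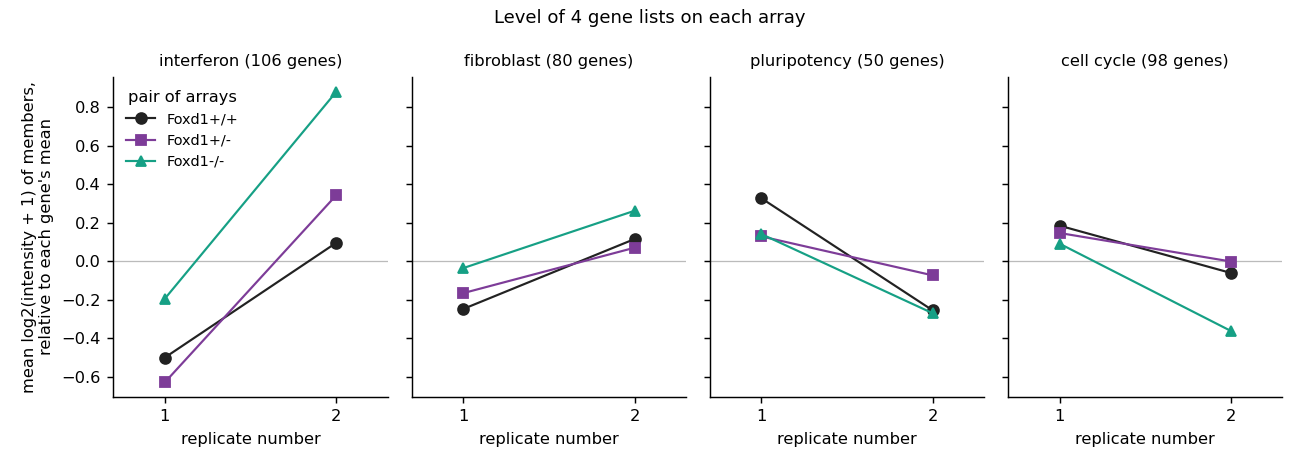
Mean log2(intensity + 1) of the members of 4 gene lists on each array, relative to each gene's mean over the 6 arrays, against the replicate number; each line joins the 2 arrays of 1 genotype. All 3 lines go up for the interferon and fibroblast lists and down for the pluripotency and cell cycle lists, and the Foxd1-/- array numbered 2 has the highest interferon level (0.88) and the lowest cell cycle level (-0.36).

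Among 19938 genes, 1763 passed the test at a Benjamini-Hochberg adjusted p under 0.05, 965 of them higher on the arrays numbered 2 (4.84% of the genes tested) and 798 lower (4.0%). Of these, 96 were higher and 82 were lower by at least 1 on the log2 scale, and the median size among called genes was 0.46. In 3027 genes all 3 arrays numbered 2 lay above all 3 numbered 1 (15.2%), and in 3151 they lay below (15.8%). With each array centred on its median gene these counts were 2313 and 4467. In 22.6% of genes every pair moved up and in 22.8% every pair moved down. Summed over all genes, 61.5% of the squared deviations between the 6 arrays followed the replicate number (1 degree of freedom). A further 21.1% followed the genotype (2 degrees of freedom) and 17.4% was left over (2 degrees of freedom). Genes that differ strongly weigh most in such a sum. The median over single genes was 29.3% for the number, 26.5% for the genotype and 26.4% for the remainder. Leaving out the Foxd1-/- pair left 0 genes called by limma with the genotype block, at a smallest adjusted p of 0.0559 and with 3191 genes at an unadjusted p under 0.05. That fit had 3.80 total degrees of freedom, against 4.83 with all pairs. Leaving out the Foxd1+/+ pair left 1202 calls and leaving out the Foxd1+/- pair left 1387. Without the genotype block 2130 genes were called by limma. Leaving out 1 array from that fit left 693 calls without Foxd1+/+ number 1, 676 without Foxd1+/- number 1, 986 without Foxd1-/- number 1, and between 1618 and 1694 without any 1 array numbered 2.

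Foxd1 had intensities of 1907, 1014 and 189 on the arrays numbered 1 and 1169, 2074 and 213 on the arrays numbered 2, each trio in the order Foxd1+/+, Foxd1+/- and Foxd1-/-, which is the order used throughout. Both Foxd1-/- arrays lay below the other 4. Markers of fibroblasts (12 of 12 measured) summed to between 29639 and 34965 on the arrays numbered 1 and between 36192 and 41903 on the arrays numbered 2, and 5 of the 12 were called higher. Macrophage and leukocyte markers (10 measured, among them Ptprc, Csf1r and Adgre1) summed to between 2052 and 2981 on the arrays numbered 1 and between 1760 and 2514 on the arrays numbered 2, and 2 of the 10 were called lower. The summed markers of endothelium lay between 1068 and 1203 against 1072 and 1116, with 1 of 6 called higher, and those of keratinocytes lay between 339 and 343 against 335 and 427, with 0 of 6 called by limma and 1 higher and 1 lower at an unadjusted p under 0.05. The sums of 3 other cell types were lower on the arrays numbered 2 without overlap. They lay between 1458 and 2244 against 888 and 1316 for pluripotent cells, with 1 of 5 markers called lower. For skeletal muscle they lay between 431 and 456 against 342 and 364, with 1 of 5 called lower. For adipocytes they lay between 195 and 209 against 180 and 182, with 1 of 4 called lower and every marker dim, between 24.4 and 63.5. Of all single genes, 15.8% were lower on the arrays numbered 2 without overlap. The sums of neural and erythroid markers overlapped. The part of all these markers in the results below was not tested.

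The interferon list had the largest median difference of the 4 programs. Of 106 measured members, 52 were called higher and 1 lower, where 4.84% and 4.0% of all genes were. The 3 arrays numbered 2 lay above the 3 numbered 1 in 65 members and below in 3, against 15.2% and 15.8% of all genes. Without the Foxd1-/- pair 0 members were called and the median was 0.63. In the fit without the genotype block 33 members were called higher, and leaving out 1 array from it left 3 without Foxd1+/+ number 1, 3 without Foxd1+/- number 1, 18 without Foxd1+/- number 2 and 25 without Foxd1-/- number 1.

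Promoter sequences are shown for 4 called members, picked for holding the element through which interferon-activated transcription factors bind and, among those that hold it, for the size of their difference. Any members on a single chromosome were passed over in the choice, whether or not they hold the element. Members with a larger difference, such as Iigp1 (2.94), are not shown. The interferon-stimulated response element was searched as GAAANNGAAA on both strands, overlapping matches included, in the 250 bases before each RefSeq gene start of GRCm38.p6, and matches are in capitals. The windows are 100 bases long, on the gene's own strand, and belong to Ifit3 (chr19:34583362-34583461, plus strand), Ifit1 (chr19:34640759-34640858, plus strand), Gbp3 (chr3:142559944-142560043, plus strand) and Cxcl10 (chr5:92349040-92349139, minus strand).
Ifit3: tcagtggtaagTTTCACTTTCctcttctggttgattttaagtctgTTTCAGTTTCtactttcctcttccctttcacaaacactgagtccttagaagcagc
Ifit1: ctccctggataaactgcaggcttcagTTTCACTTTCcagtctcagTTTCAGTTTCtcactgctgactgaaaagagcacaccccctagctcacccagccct
Gbp3: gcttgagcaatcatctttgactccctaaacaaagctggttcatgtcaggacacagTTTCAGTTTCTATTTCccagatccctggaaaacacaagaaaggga
Cxcl10: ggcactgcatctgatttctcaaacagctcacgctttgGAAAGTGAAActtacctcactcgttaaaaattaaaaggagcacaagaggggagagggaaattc
The element was found in 23 of the 81 interferon list members with a promoter in the table (28.4%) and in 3.46% of the 27025 genes with a promoter there. Among the 15614 of these that were measured the share was 3.4%. A match is a description of the letters and not a measured binding site.

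The ligands were dim on every array. Ifnb1, which encodes interferon beta, had intensities of 25.5, 25.4 and 27.2 on the arrays numbered 1 and 25.4, 26.1 and 25 on the arrays numbered 2, close to the lowest values of the table. The trios overlap. Of 9 ligand genes measured, 0 were called by limma, with 1 higher and 1 lower at an unadjusted p under 0.05, and their median log2 difference was -0.04. Ifng, interferon gamma, had a log2 difference of 0.20 ± 0.07 (SE) and was not called, with intensities of 39.5, 38.4 and 35.5 on the arrays numbered 1 and 40.2, 46.0 and 44.2 on the arrays numbered 2. An absence of ligand RNA cannot be read from this, since no detection call comes with the values.

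Among 11 receptors and signal transducers 3 were called higher and none lower by limma. The receptor chain Ifnar1 had intensities of 519, 505 and 535 on the arrays numbered 1 and 512, 498 and 482 on the arrays numbered 2, and its trios overlap. Stat2, the transducer that pairs with Irf9, had intensities of 381, 341 and 652 on the arrays numbered 1 and 970.1, 1081 and 1773 on the arrays numbered 2. Its trios do not overlap, and the log2 difference was 1.48 ± 0.07 (limma adjusted p = 0.00509). Irf9, its DNA-binding partner, differed by 0.95 ± 0.11 (limma adjusted p = 0.015). Usp18, which is induced by interferon and dampens the receptor, differed by 1.74 ± 0.31 (limma adjusted p = 0.0387).

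The sensors and interferon regulatory factors were split. Of 14 measured, 6 were called higher and 1 lower. Irf1, the factor at the centre of the interferon gamma response, had intensities of 388, 265 and 348 on the arrays numbered 1 and 867, 738 and 1686 on the arrays numbered 2, a log2 difference of 1.64 ± 0.22 (limma adjusted p = 0.0213). Irf7, which drives interferon alpha genes, had intensities of 168, 148 and 349 on the arrays numbered 1 and 348, 583 and 992 on the arrays numbered 2 and differed by 1.51 ± 0.18 (limma adjusted p = 0.0168). In both genes the Foxd1-/- array numbered 2 was the highest. The RNA sensor Ifih1 (log2 difference 1.30), the nucleic acid sensor Zbp1 (1.28), Dhx58 (1.21) and Tlr3 (0.58) were also called higher. Sting1, the adaptor of the cytosolic DNA sensor Cgas, went the other way, with intensities of 869, 842 and 957 on the arrays numbered 1 and 509, 502 and 680.3 on the arrays numbered 2 and a difference of -0.67 ± 0.07 (limma adjusted p = 0.0135). It is the 1 called member of the list that was lower.

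All 46 antiviral effectors had a positive difference, and 25 were called higher. Their median was 0.83, and 41 of them moved up in every pair, against 22.6% of all genes. Ifit3, which encodes a protein that helps Ifit1 bind foreign RNA, had intensities of 67.1, 60.9 and 204 on the arrays numbered 1 and 274, 548 and 1108 on the arrays numbered 2. The trios do not overlap, although the Foxd1-/- array numbered 1 lay well above the other arrays numbered 1, and the log2 difference was 2.53 ± 0.22 (limma adjusted p = 0.00897). Ifit1 had intensities of 101, 75.4 and 312 on the arrays numbered 1 and 358, 838 and 1056 on the arrays numbered 2 and differed by 2.34 ± 0.36 (limma adjusted p = 0.0291). Ifit2, a relative in the same family, was the effector with the smallest p, with intensities of 76.7, 93.0 and 116 on the arrays numbered 1 and 157, 196 and 252 on the arrays numbered 2 and a difference of 1.07 ± 0.05 (limma adjusted p = 0.00494).

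Bst2, which tethers budding virus particles to the cell, had intensities of 352, 282 and 559 on the arrays numbered 1 and 1000.2, 1322 and 2239 on the arrays numbered 2 and differed by 1.91 ± 0.14 (limma adjusted p = 0.00759). The next effectors by p were Ifi203 (log2 difference 1.52), Samd9l (1.26) and Trim21 (1.198), the last an antibody receptor in the cytosol. Gm4951, which has a provisional name and was named after its value was seen, had the largest positive difference of all 19938 genes, with intensities of 106, 73.5 and 143 on the arrays numbered 1 and 544, 597 and 1755 on the arrays numbered 2 and a difference of 2.99 ± 0.24 (limma adjusted p = 0.00819). Not every effector passed the test. The difference was 0.47 for Mx1, 0.08 for Oas1a, 0.25 for Isg20 and 0.07 for Parp12, none of them called.

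GTPases and antigen processing genes differed most. All 20 measured had a positive difference, 16 were called higher, and the median was 1.53, with 1.08, 1.17 and 2.18 within the 3 pairs. Iigp1, an immunity-related GTPase, had intensities of 115, 75 and 158 on the arrays numbered 1 and 634, 565 and 1762 on the arrays numbered 2 and differed by 2.94 ± 0.20 (limma adjusted p = 0.00636). The guanylate-binding protein gene Gbp3 had intensities of 305, 257 and 539.5 on the arrays numbered 1 and 1334, 1422 and 3024 on the arrays numbered 2. Its 3 pairs differed by 2.12, 2.46 and 2.48 and the mean was 2.36 ± 0.09 (limma adjusted p = 0.00447). Gbp4 differed by 2.71 ± 0.26 (limma adjusted p = 0.0106), Gbp9 by 2.18 ± 0.26 (limma adjusted p = 0.0174), Gbp7 by 2.03 ± 0.09 (limma adjusted p = 0.00494) and Irgm1 by 1.95 ± 0.14 (limma adjusted p = 0.00735); Gbp4 and Gbp9 are outside the list and enter by the size of their difference.

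The genes that load peptides on MHC class I moved with them. Nlrc5, the transactivator of MHC class I genes, had intensities of 251, 168 and 257 on the arrays numbered 1 and 916, 959 and 1907 on the arrays numbered 2 and differed by 2.42 ± 0.20 (limma adjusted p = 0.00827). H2-Q4, a non-classical MHC class I gene, had intensities of 242, 181 and 263 on the arrays numbered 1 and 798, 884 and 2799 on the arrays numbered 2 and differed by 2.47 ± 0.32 (limma adjusted p = 0.0204). It shares sequence with other class I genes, so its value may include their transcripts.

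The immunoproteasome subunit genes Psmb9 and Psmb8 differed by 2.12 ± 0.18 (limma adjusted p = 0.00869) and 2.10 ± 0.20 (limma adjusted p = 0.0107). The peptide transporter Tap1 differed by 1.97 ± 0.15 (limma adjusted p = 0.00759). B2m, the light chain of class I molecules, was bright on every array, with intensities of 3492, 3201 and 4246 on the arrays numbered 1 and 5839, 6630.2 and 7818 on the arrays numbered 2, and still differed by 0.89 ± 0.07 (limma adjusted p = 0.00825). Its trios do not overlap.

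Of 6 chemokine genes, 2 were called higher. Cxcl10, a chemokine that draws T cells and is induced by both kinds of interferon, had intensities of 63.5, 57.2 and 93.2 on the arrays numbered 1 and 166, 311 and 875 on the arrays numbered 2. The Foxd1-/- array numbered 2 was the highest by far, and the log2 difference was 2.34 ± 0.35 (limma adjusted p = 0.0263). Ccl2, which draws monocytes, differed by 0.70 ± 0.14 (limma adjusted p = 0.0482).

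**Figure D2:**
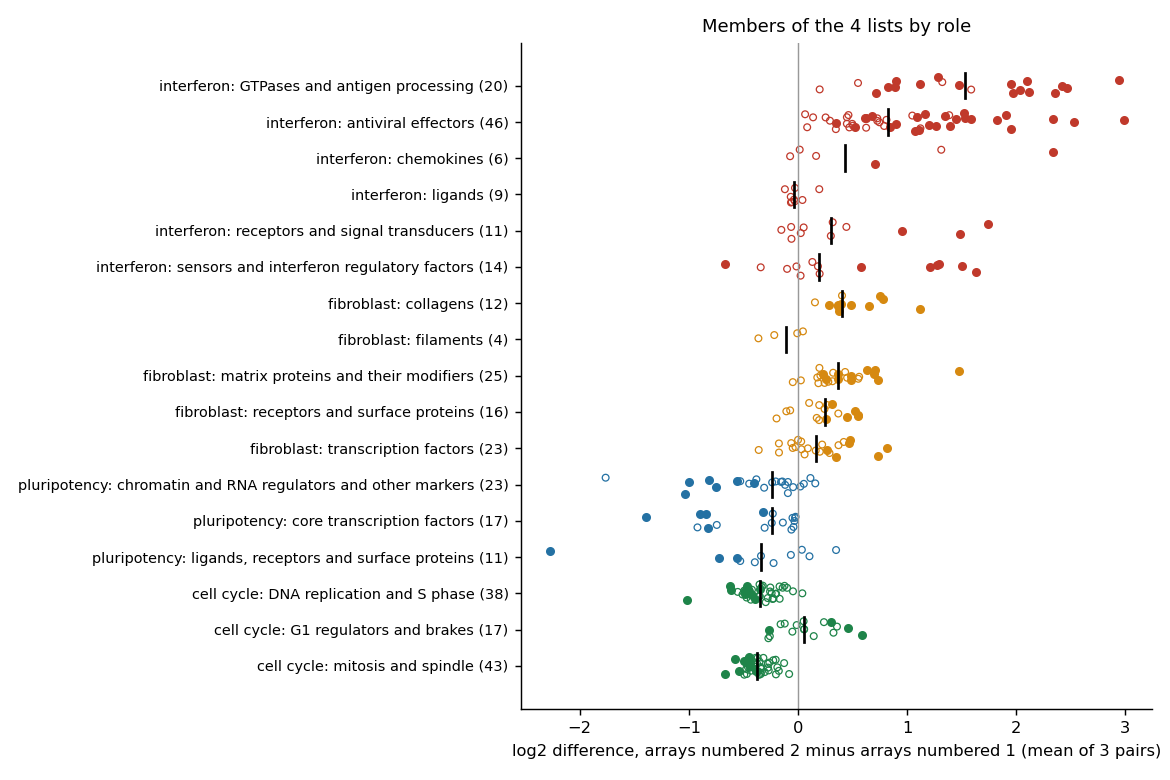
Log2 difference between arrays numbered 2 and arrays numbered 1 (mean of 3 pairs) for each measured member of the 4 lists, grouped by role with the number measured; filled points passed limma's test, open points did not, and black bars are medians. The antiviral effectors, GTPases and antigen processing genes lie wholly to the right of 0 and all 43 mitosis genes to the left.

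Fibroblast genes were higher on the arrays numbered 2 by smaller amounts. Of 80 measured members, 33 were called higher and none lower by limma, against 4.84% and 4.0% of all genes. In every pair 55 moved up and 5 moved down, against 22.6% and 22.8% of all genes. The members below 0 were 13, none of them called by limma. Without the Foxd1-/- pair 0 members were called, without the Foxd1+/+ pair 21 were, and the median was 0.28 and 0.26 in those fits. In the fit without the genotype block 23 were called, and between 6 (without Foxd1+/+ number 1) and 17 (without Foxd1-/- number 1) when 1 array was left out; the others gave 11, 8, 14 and 12 without Foxd1+/+ number 2, Foxd1+/- number 1, Foxd1+/- number 2 and Foxd1-/- number 2.

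Collagens held the highest share of called members among the fibroblast roles. All 12 moved up in every pair, against 22.6% of all genes, 10 were called and the median difference was 0.40. Col3a1, a fibrillar collagen of loose connective tissue, had intensities of 4507, 4359 and 5569 on the arrays numbered 1 and 5785, 5834 and 7021 on the arrays numbered 2; its trios do not overlap and the log2 difference was 0.37 ± 0.05 (limma adjusted p = 0.0181). Col1a1, a chain of type I collagen, had intensities of 4368, 4918 and 5445 on the arrays numbered 1 and 6356, 5884 and 7143 on the arrays numbered 2 and differed by 0.40 ± 0.07 (limma adjusted p = 0.0355). Col1a2, the partner chain, differed by 0.16 and was not called. Type VI collagen chains differed by 0.48 ± 0.05 (limma adjusted p = 0.0111) for Col6a1 and 0.78 ± 0.08 (limma adjusted p = 0.0108) for Col6a3, and Col14a1 had the largest difference of the collagens, 1.12 ± 0.10 (limma adjusted p = 0.0101).

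Of 25 matrix proteins and modifiers, 11 were called higher. Ogn, a small proteoglycan that binds collagen fibrils, had intensities of 103, 117 and 159.7 on the arrays numbered 1 and 328, 301 and 427 on the arrays numbered 2, and its log2 difference was 1.48 ± 0.07 (limma adjusted p = 0.00504). Timp3, an inhibitor of matrix proteases, differed by 0.70 ± 0.05 (limma adjusted p = 0.00724) and Mmp2, a gelatin-cleaving protease, by 0.63 ± 0.05 (limma adjusted p = 0.00813). Postn, a matrix protein of activated fibroblasts, differed by 0.73 ± 0.09 (limma adjusted p = 0.0162). Fmod, a relative of Ogn that is outside the list, was the highest by difference of the 15 genes named by size that lie outside the interferon list and the Gbp family, with intensities of 108, 105 and 146 on the arrays numbered 1 and 418, 366 and 813 on the arrays numbered 2 and a difference of 2.07 ± 0.14 (limma adjusted p = 0.00636).

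Among 16 receptors and surface proteins 6 were called higher, with Pdgfrb, a receptor for platelet-derived growth factor, at intensities of 407, 415 and 550.1 on the arrays numbered 1 and 574, 617 and 826 on the arrays numbered 2 and a difference of 0.55 ± 0.05 (limma adjusted p = 0.00869). S1pr3 differed by 0.55 ± 0.05 (limma adjusted p = 0.00929), the collagen receptor Mrc2 by 0.45 ± 0.06 (limma adjusted p = 0.0191) and the adhesion protein Cdh11 by 0.52 ± 0.07 (limma adjusted p = 0.02). Of 23 mesenchymal transcription factors 6 were called higher, among them Zeb2 (0.47), Tcf4 (0.47), Prrx2 (0.82) and Foxc1 (0.35), Zeb2 being a repressor of epithelial genes. Not all fibroblast markers shared in this. Thy1 had intensities of 893, 963 and 1009 on the arrays numbered 1 and 876, 914 and 869.6 on the arrays numbered 2 and a difference of -0.11, and Vim, the intermediate filament of mesenchymal cells, had a difference of 0.05; neither was called. The 4 genes listed as filaments had a median of -0.11.

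Pluripotency genes were lower. Of 50 measured members, 14 were called lower and none higher by limma, against 4.0% and 4.84% of all genes. In every pair 27 moved down, against 22.8% of all genes. In 25 members all 3 arrays numbered 2 lay below the 3 numbered 1, against 15.8% of all genes. The Foxd1+/- pair stood apart in this list: 29 of its members were lower and 21 higher, against 45 lower in Foxd1+/+ and 44 lower in Foxd1-/-. Without that pair 22 members were called lower and the median was -0.34. Without the Foxd1-/- pair 0 were called and the median was -0.27. The fit without the genotype block called 15 members lower; it called 8 when the array Foxd1+/+ number 1 was left out and between 10 and 17 when any other array was.

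Of 17 core transcription factors, all had a difference below 0 and 5 were called. Tfcp2l1, a factor of the naive state that is induced by LIF signals, had intensities of 1218, 1096 and 1214 on the arrays numbered 1 and 459, 494 and 391 on the arrays numbered 2; the trios do not overlap and the log2 difference was -1.40 ± 0.10 (limma adjusted p = 0.00735). Nr5a2, a nuclear receptor that can stand in for Oct4 in reprogramming, differed by -0.83 ± 0.10 (limma adjusted p = 0.0156). Sall4 differed by -0.85 ± 0.13 (limma adjusted p = 0.0297) and Esrrb by -0.90 ± 0.14 (limma adjusted p = 0.03). Nanog, a gatekeeper of the network, had intensities of 880.0, 581 and 549 on the arrays numbered 1 and 607, 817 and 499 on the arrays numbered 2. Its trios overlap, and its difference of -0.06 was not called. Zfp42 lay between 36.9 and 42.9 on all 6 arrays.

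The 3 delivered factors were not alike. The files do not say whether these probe sets also read the viral transcripts. Pou5f1 had intensities of 580.3, 331 and 348 on the arrays numbered 1 and 138, 298 and 145 on the arrays numbered 2, with the Foxd1+/- pair nearly level, and a difference of -1.16 ± 0.36 that was not called (limma adjusted p = 0.129). Sox2 had intensities of 163, 124 and 135 on the arrays numbered 1 and 111, 83.0 and 93.0 on the arrays numbered 2; its trios do not overlap and it was called lower, with a difference of -0.55 ± 0.04 (limma adjusted p = 0.00812). Klf4 had intensities of 261, 254 and 268 on the arrays numbered 1 and 275, 258 and 306 on the arrays numbered 2 and a difference of 0.09, which was not called.

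The 11 ligands, receptors and surface proteins held 3 called members. Tdgf1, the co-receptor of Nodal, had intensities of 363, 189 and 192 on the arrays numbered 1 and 49.6, 48.2 and 46.4 on the arrays numbered 2. The arrays numbered 2 lay between 46.4 and 49.6, and the log2 difference was -2.27 ± 0.19 (limma adjusted p = 0.00852). Nodal itself had intensities of 81.1, 79.5 and 74.9 on the arrays numbered 1 and 50, 55.6 and 53.1 on the arrays numbered 2 and differed by -0.56 ± 0.06 (limma adjusted p = 0.0129). Alpl, the alkaline phosphatase by which early colonies are stained, differed by -0.72 ± 0.14 (limma adjusted p = 0.0469).

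Of 23 chromatin regulators and other markers 6 were called lower. Dppa2, a chromatin factor of early embryos, had intensities of 124, 104 and 92.6 on the arrays numbered 1 and 52.5, 51.5 and 49.6 on the arrays numbered 2 and differed by -1.04 ± 0.08 (limma adjusted p = 0.00759). Tet1, which oxidises methylated DNA, had intensities of 214, 168 and 159.5 on the arrays numbered 1 and 83.0, 99.3 and 85.5 on the arrays numbered 2 and differed by -0.999 ± 0.12 (limma adjusted p = 0.0185). Fbxo15 differed by -0.75 ± 0.07 (limma adjusted p = 0.0101), Upp1 by -0.82 ± 0.08 (limma adjusted p = 0.0119) and the cell cycle regulator Mybl2 by -0.56 ± 0.06 (limma adjusted p = 0.013). Dppa5a had the largest difference of this role, -1.76 ± 0.37, with intensities of 1074, 660.4 and 774 on the arrays numbered 1 and 143, 323 and 300.2 on the arrays numbered 2, but missed the threshold (limma adjusted p = 0.0575).

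Cell cycle genes were lower, by small amounts. Of 98 measured members, 24 were called lower and 3 higher, against 4.0% and 4.84% of all genes. In every pair 68 moved down, against 22.8% of all genes. Without the Foxd1-/- pair 0 were called and the median was -0.24, and without the Foxd1+/+ pair 7 were called and the median was -0.35. With a pseudocount of 32 there were 12 called lower, and 43 in a fit with both a mean-variance trend and robust settings. In the fit without the genotype block 20 were called, and 3, 12, 2 and 6 without Foxd1+/+ number 1, Foxd1+/+ number 2, Foxd1+/- number 1 and Foxd1-/- number 1.

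All 43 genes of mitosis and the spindle had a difference below 0 and 12 were called lower. In every pair 37 of them moved down, against 22.8% of all genes. Their median was -0.27, -0.24 and -0.62 within the 3 pairs. Aurka, a kinase of the spindle poles, had intensities of 554, 540.1 and 496 on the arrays numbered 1 and 356, 371 and 281 on the arrays numbered 2, and its log2 difference was -0.67 ± 0.07 (limma adjusted p = 0.0119). Hmmr differed by -0.58 ± 0.08 (limma adjusted p = 0.0231), the kinetochore gene Ndc80 by -0.44 ± 0.06 (limma adjusted p = 0.0258) and Cdca8, a subunit of the Aurora B complex, by -0.37 ± 0.05 (limma adjusted p = 0.0227). Cdk1, the kinase that starts mitosis, had intensities of 731, 705 and 731 on the arrays numbered 1 and 564, 625 and 476 on the arrays numbered 2 and a difference of -0.39, and Mki67 had a difference of -0.27; neither was called, and in both the Foxd1-/- array numbered 2 was the lowest.

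Of 38 genes of DNA replication and S phase, 37 had a difference below 0 and 11 were called lower. Brca2, which loads the recombinase at stalled forks, had intensities of 195, 219 and 226 on the arrays numbered 1 and 108, 114 and 91.8 on the arrays numbered 2 and the largest difference of the list, -1.02 ± 0.10 (limma adjusted p = 0.0108). Gins1, a subunit of the replicative helicase, differed by -0.62 ± 0.06 (limma adjusted p = 0.00963), its partner Cdc45 by -0.45 ± 0.06 (limma adjusted p = 0.0189) and the thymidine kinase Tk1 by -0.47 ± 0.06 (limma adjusted p = 0.0208). The trios of Gins1, at 172, 169.8 and 155 on the arrays numbered 1 and 103, 114 and 105 on the arrays numbered 2, do not overlap.

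G1 regulators were the exception within the list. Of 17, 3 were called higher and 1 lower. Cdkn2a, which encodes the senescence-linked inhibitors p16 and p19, had intensities of 214, 217 and 217 on the arrays numbered 1 and 299.5, 298 and 296 on the arrays numbered 2; the arrays of each trio nearly coincide and the difference was 0.46 ± 0.04 (limma adjusted p = 0.0103). Cdkn1c, a second inhibitor of cyclin-dependent kinases, had intensities of 676, 621 and 965 on the arrays numbered 1 and 942, 1019 and 1445 on the arrays numbered 2 and differed by 0.59 ± 0.06 (limma adjusted p = 0.0126). Ccnd2, a D-type cyclin, differed by 0.31 ± 0.06 (limma adjusted p = 0.0407) and its relative Ccnd3 by -0.26 ± 0.05 (limma adjusted p = 0.0379).

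Windows of cell cycle promoters are shown for 3 of the called members, picked because they carry an element of their role, in the same 250 bases before the gene start. The CHR element of mitotic genes was searched as TTTGAA and the E2F site of replication genes as TTTCCCGC or TTTGGCGC, on both strands, with matches in capitals. The genes are Ube2c with a CHR match (chr2:164769829-164769928, plus strand) and Mcm5 (chr8:75109314-75109413, plus strand) and Brca2 (chr5:150522407-150522506, plus strand) with an E2F match. Any members on a single chromosome were passed over in the choice. Apart from those, Ube2c was the only one of 12 called mitosis genes with the CHR letters. Mcm5 and Brca2 were the only ones of 11 called replication genes with the E2F letters.
Ube2c: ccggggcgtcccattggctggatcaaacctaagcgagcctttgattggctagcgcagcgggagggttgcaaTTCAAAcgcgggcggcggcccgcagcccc
Mcm5: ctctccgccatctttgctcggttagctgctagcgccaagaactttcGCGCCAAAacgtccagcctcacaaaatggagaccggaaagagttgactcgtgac
Brca2: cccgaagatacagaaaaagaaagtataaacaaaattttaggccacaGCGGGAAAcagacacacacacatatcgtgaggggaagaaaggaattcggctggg
Ube2c, whose protein marks cyclins for destruction, differed by -0.45 ± 0.09 (limma adjusted p = 0.0489) and Mcm5, a helicase subunit, by -0.42 ± 0.06 (limma adjusted p = 0.0263). The CHR letters were found in 11 of 35 mitosis genes with a promoter (31.4%) and in 18.3% of all genes with a promoter. They were also found in 10 of 35 antiviral effectors (28.6%), a group that was higher on the arrays numbered 2. The share was 21.4% in GTPases and antigen processing genes and 12.5% in replication genes. So these letters were not particular to mitosis genes. The E2F letters were found in 7 of 32 replication genes (21.9%) and in 1.51% of all. CCAAT, searched the same way, was found in 26 of the 35 mitosis genes (74.3%), in 21 of the 32 replication genes (65.6%) and in 37.5% of all. The octamer ATGCAAAT was found in 1 of 35 pluripotency genes with a promoter (2.86%) and in 1.81% of all. These shares of all genes include genes that were not measured. Among the 15614 measured genes with a promoter they were 15.7% for CHR, 2.13% for E2F, 38.8% for CCAAT and 1.79% for the octamer.

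**Figure D3:**
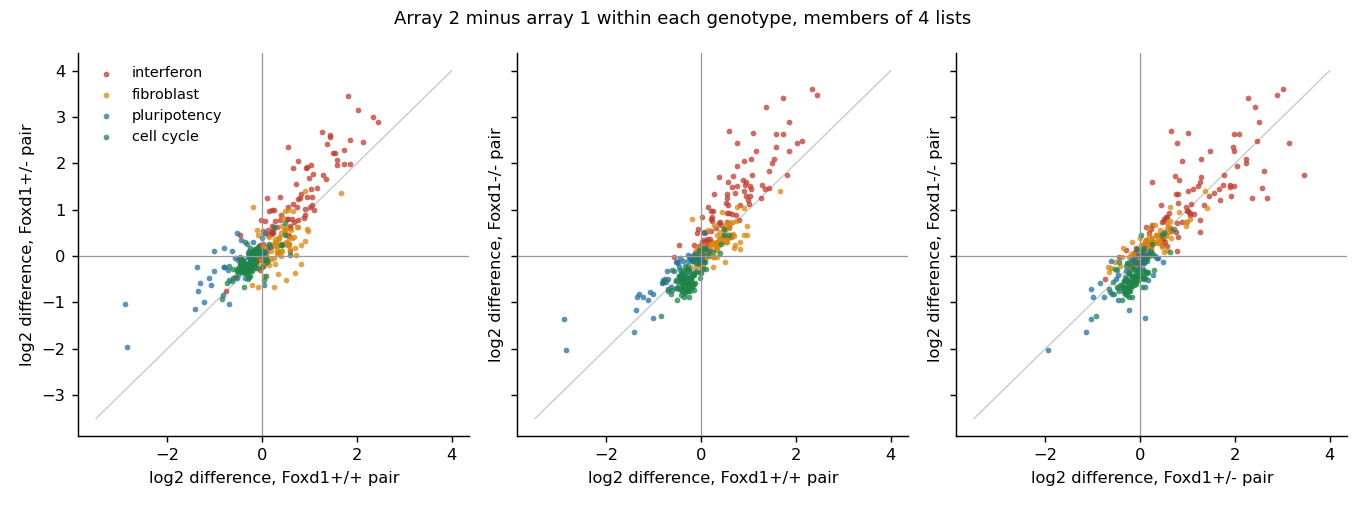
Log2 difference of array 2 minus array 1 within 1 genotype against that within another, for the members of the 4 lists; the grey diagonal marks equal differences. Interferon genes (red) lie mostly in the upper right of each panel, where their median within Foxd1-/- was 0.93, and pluripotency (blue) and cell cycle genes (green) mostly in the lower left.

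By size, the 15 named genes most above and the 15 most below, provisional names left out, were spread over more than these programs. Kcnip4, a partner of voltage-gated potassium channels, had the largest difference in either direction of all 19938 genes, with intensities of 489.5, 405 and 582 on the arrays numbered 1 and 45.3, 55.7 and 58.7 on the arrays numbered 2 and a log2 difference of -3.18 ± 0.12 (limma adjusted p = 0.00447). It was several times brighter on every array numbered 1, with little spread within a trio. Bhmt, which remethylates homocysteine from betaine, had intensities of 2086, 1638 and 2023 on the arrays numbered 1 and 440.1, 489 and 250.4 on the arrays numbered 2 and differed by -2.33 ± 0.24 (limma adjusted p = 0.0126). Its neighbour and relative Bhmt2 had intensities of 376, 374 and 332 on the arrays numbered 1 and 129, 108 and 94.5 on the arrays numbered 2 and differed by -1.71 ± 0.07 (limma adjusted p = 0.00494).

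Serpina3n and Saa3 are acute phase genes. Serpina3n, a protease inhibitor, had intensities of 271, 285 and 366 on the arrays numbered 1 and 82.7, 68.8 and 68.7 on the arrays numbered 2 and differed by -2.04 ± 0.14 (limma adjusted p = 0.00636). Saa3, a serum amyloid protein, had intensities of 1125, 1289.7 and 1116 on the arrays numbered 1 and 325, 257 and 397 on the arrays numbered 2 and differed by -1.87 ± 0.16 (limma adjusted p = 0.00929). Both were lower on each array numbered 2, while the interferon genes were higher there.

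Other genes lower by this rule were Msc, a repressor of myogenic factors, at intensities of 507, 457 and 418 on the arrays numbered 1 and 141, 144 and 124 on the arrays numbered 2 and a difference of -1.75 ± 0.05 (limma adjusted p = 0.00447), the neurturin receptor Gfra2 (-1.77), the citrate transporter Slc13a5 (-2.15), Urah (-1.84), adenosine deaminase Ada (-1.63), Acsbg3 (-1.60), Emb (-1.60) and the neuropeptide gene Npy (-1.56). Cd3g, a chain of the T cell receptor complex, had intensities of 948, 966 and 968 on the arrays numbered 1 and 356, 272 and 275 on the arrays numbered 2 and differed by -1.68 ± 0.10 (limma adjusted p = 0.00535). Its partner genes Cd3d and Cd3e, looked up after this value was seen, were dim, with Cd3d between 27.7 and 32.8 and Cd3e between 44.2 and 51.3 on all arrays. On the higher side, Glra2, a glycine receptor subunit, had intensities of 147, 71.3 and 105 on the arrays numbered 1 and 332, 602 and 378 on the arrays numbered 2 and differed by 2.02 ± 0.36 (limma adjusted p = 0.0393).

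**Figure D4:**
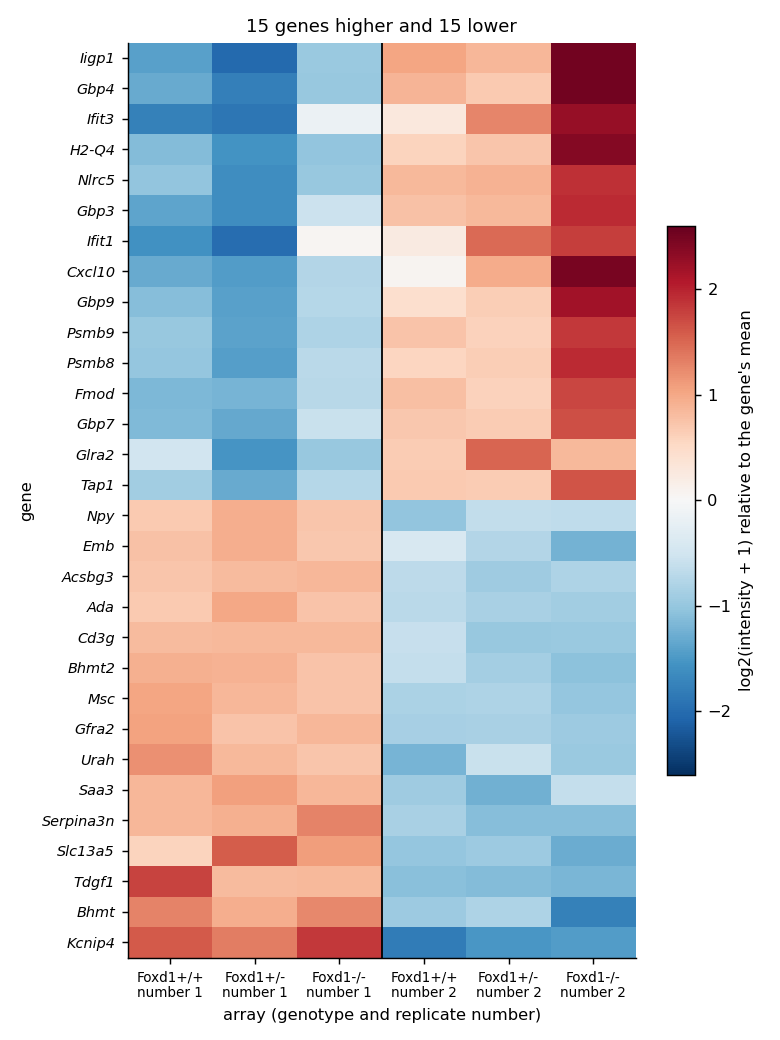
Heat map of log2(intensity + 1), relative to each gene's mean over the 6 arrays, for the 15 genes with the largest positive and the 15 with the largest negative difference among those called, leaving out provisional names, large receptor families and small RNA genes; columns are arrays, the 3 numbered 1 left of the black line and the 3 numbered 2 right of it. The change of sign at the line is a property of the selection; within the arrays numbered 2, Iigp1 is brightest in Foxd1-/- (1762), as are most of the 15 genes at the top.

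Beyond the 4 programs, cytokine and NF-kB response genes held 7 called lower and 2 higher of 28, against 4.84% higher and 4.0% lower over all genes, with a median of -0.06. The stromal proteases Mmp3 and Mmp10 had log2 differences of -1.38 ± 0.12 (limma adjusted p = 0.00866) and -0.97 ± 0.09 (limma adjusted p = 0.00952). Hp, which encodes the acute phase protein haptoglobin, had intensities of 100.2, 102 and 110.3 on the arrays numbered 1 and 52.5, 49.0 and 41.8 on the arrays numbered 2 and differed by -1.11 ± 0.10 (limma adjusted p = 0.0094). With Saa3 these 4 are the members with the smallest p.

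Epithelial genes held 8 called lower and 1 higher of 45, against 4.84% higher and 4.0% lower over all genes. Grhl3, a regulator of epithelial barriers, had intensities of 334, 368 and 351 on the arrays numbered 1 and 105, 133 and 125 on the arrays numbered 2; the trios do not overlap and the log2 difference was -1.54 ± 0.06 (limma adjusted p = 0.00447). The membrane protease St14 differed by -0.71 ± 0.06 (limma adjusted p = 0.00812), the splicing factor Esrp2 by -0.58 ± 0.07 (limma adjusted p = 0.0177) and the desmosomal cadherin Dsg2 by -0.68 ± 0.05 (limma adjusted p = 0.00759). The 8 keratins held 0 called genes by limma, 0 at an unadjusted p under 0.05, and a median of 0.10.

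Genes of the TGF-beta response held 5 called higher and 1 lower of 16, against 4.84% higher and 4.0% lower over all genes. Ccn2, a matricellular target of this pathway, had intensities of 1101, 1441 and 1197 on the arrays numbered 1 and 2883, 2382 and 2523 on the arrays numbered 2 and differed by 1.06 ± 0.13 (limma adjusted p = 0.018). The ligand Tgfb2 differed by 0.86 ± 0.10 (limma adjusted p = 0.0173), Ccn1 by 0.66 ± 0.09 (limma adjusted p = 0.0211) and the receptor Tgfbr1 by 0.34 ± 0.06 (limma adjusted p = 0.033). Of 27 genes of the BMP and Wnt pathways 8 were called higher and 2 lower, against the same shares of all genes. The ligand Bmp4 had intensities of 102, 103 and 123 on the arrays numbered 1 and 190.2, 178 and 209.8 on the arrays numbered 2 and differed by 0.81 ± 0.05 (limma adjusted p = 0.00595). Wnt5a, a non-canonical Wnt ligand, differed by 0.69 ± 0.05 (limma adjusted p = 0.00735), Bmp6 by 0.66 ± 0.07 (limma adjusted p = 0.0139) and the Wnt antagonist Dkk2 by 0.70 ± 0.08 (limma adjusted p = 0.0137).

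Stress and early response genes were mixed. Of 22 genes of the endoplasmic reticulum and amino acid stress list 3 were called higher and 3 lower, against 4.84% higher and 4.0% lower over all genes. Slc7a11, the cystine importer, had intensities of 335, 293 and 151 on the arrays numbered 1 and 944, 1155 and 492 on the arrays numbered 2 and differed by 1.72 ± 0.10 (limma adjusted p = 0.00535), while Trib3 and Psat1, targets of the same stress pathway, were lower, with differences of -0.30 ± 0.05 (limma adjusted p = 0.0324) and -0.37 ± 0.06 (limma adjusted p = 0.0325). Among 15 immediate early genes, Jun and Egr1, transcription factors induced by growth factor signals, differed by 0.72 ± 0.05 (limma adjusted p = 0.0074) and 0.68 ± 0.11 (limma adjusted p = 0.0308), and Ier3 and Nr4a1 by -0.94 ± 0.06 (limma adjusted p = 0.00636) and -0.40 ± 0.06 (limma adjusted p = 0.0258).

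Metabolic and positional lists had medians nearer 0 than the 4 programs, of -0.05 for hypoxia and glycolysis, -0.09 for oxidative phosphorylation and 0.12 for Hox genes. Over all genes 4.84% were called higher and 4.0% lower. Hypoxia and glycolysis genes held 1 called higher and 5 lower of 24, with Hk2, a hexokinase, at -0.50 ± 0.06 (limma adjusted p = 0.0202) and Vegfa at 0.34 ± 0.05 (limma adjusted p = 0.0242). Oxidative phosphorylation genes held 2 called lower of 19, of which Cycs, cytochrome c, had intensities of 1114, 1130.4 and 1020.3 on the arrays numbered 1 and 730.1, 696 and 713 on the arrays numbered 2 and differed by -0.61 ± 0.05 (limma adjusted p = 0.00952). Hox genes held 5 called higher of 41, among them Hoxc8 (0.34), Hoxd8 (0.37), Hoxa5 (0.35) and Hoxd4 (0.44). Of 19 ribosomal protein genes 0 were called by limma, with 2 lower at an unadjusted p under 0.05 and a median of -0.04.

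Markers of other cell types were set against the 4.84% of all genes called higher and the 4.0% called lower. Macrophage and leukocyte genes held 0 called higher by limma and 3 lower of 30, with 5 higher and 7 lower at an unadjusted p under 0.05 and a median of 0.05. The highest member was Mpeg1, at 1.48 and not called, and Laptm5, a lysosomal protein of blood cells, had intensities of 1296, 1341 and 928 on the arrays numbered 1 and 934, 765 and 582 on the arrays numbered 2 and differed by -0.65 ± 0.08 (limma adjusted p = 0.0162). Neural genes held 3 called lower and 1 higher of 13, where the neurofilament genes Nefl and Nefm differed by -1.31 ± 0.26 (limma adjusted p = 0.0485) and -1.06 ± 0.14 (limma adjusted p = 0.022). Skeletal muscle genes held 2 called lower of 21, with Mylpf at -1.05 ± 0.09 (limma adjusted p = 0.00929). Cartilage and bone genes held 3 called higher and 1 lower of 16. Their median was -0.009, with 7 members above 0 and 9 below. Among those called higher were Sox9, a transcription factor of cartilage, at 0.72 ± 0.10 (limma adjusted p = 0.0248) and Col11a1 at 0.60 ± 0.07 (limma adjusted p = 0.0182). Alpl was the member called lower, at -0.72 ± 0.14 (limma adjusted p = 0.0469).

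The genes outside a list whose profile over the 6 arrays was most like the mean of that list were named by Pearson's r over 6 arrays. They were Calml4 (0.998), Ube2l6 (0.998) and Olfml3 (0.997) for interferon, Fam214a (0.999), C1qtnf2 (0.998) and Antxr2 (0.997) for the fibroblast list, Xpo4 (0.997), Mfsd13a (0.996) and Lrp8os2 (0.996) for pluripotency, and Ube2s (0.998), Cenpn (0.998) and Dnajb8 (0.997) for the cell cycle. Ube2l6 is the conjugating enzyme of the interferon-induced modifier Isg15. The arrays fall into 2 sets, so such values are high for any gene that follows the number, and they are a description.

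Some features did not follow the number. Of 6 sex markers measured 0 were called by limma, with 0 at an unadjusted p under 0.05, and 0.26% of their summed squared deviations followed the number. Xist, the RNA of the inactive X chromosome, had intensities of 514, 33.7 and 623 on the arrays numbered 1 and 35.2, 692 and 848 on the arrays numbered 2. The Y-linked gene Uty had intensities of 24.1, 244 and 25.9 on the arrays numbered 1 and 274, 24.8 and 23.6 on the arrays numbered 2. Y-linked transcripts were thus high on 2 arrays, Foxd1+/+ number 2 and Foxd1+/- number 1, 1 from each set, and Xist was low on the same 2. The arrays of the Foxd1+/+ pair and of the Foxd1+/- pair therefore differed in these transcripts. Both Foxd1-/- arrays had high Xist and dim Uty. What this says of the embryos behind a number was not tested. Kdm5d and Eif2s3y had the same pattern as Uty, while Zfy1 and Usp9y were dim on all 6.

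The contractile genes split the same way. Of 20 measured, 1 was called higher and 0 lower by limma, near the 4.84% and 4.0% of all genes. At an unadjusted p under 0.05, 2 were higher and 1 lower. The called gene was Smtn, with a difference of 0.27 ± 0.05 (limma adjusted p = 0.0379). Of the summed squared deviations 13.5% followed the number, against 61.5% over all genes. The median difference was 0.31 in Foxd1+/+, -0.20 in Foxd1+/- and 0.01 in Foxd1-/-, with 18 of 20 higher in the first pair and 17 of 20 lower in the second. Acta2, smooth muscle actin, had intensities of 2316, 3642 and 2473 on the arrays numbered 1 and 3440.3, 2346 and 2282 on the arrays numbered 2. The 2 highest arrays are those with high Uty, and the part of the sex of the cells in this was not tested.

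**Figure D5:**
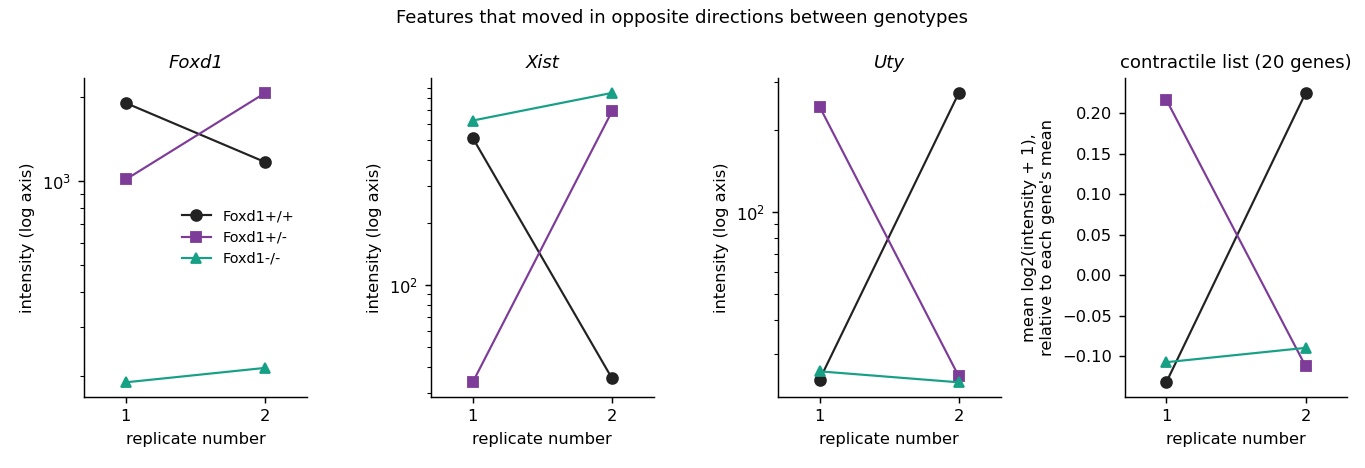
Intensity of Foxd1, Xist and Uty (log axes) and mean level of 20 contractile genes (log2, relative to each gene's mean) against the replicate number, with a line for each genotype. The lines of Foxd1+/+ and Foxd1+/- cross in every panel, and both Foxd1-/- arrays are low for Foxd1 (189 and 213).

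The comparison between genotypes was made with and without the replicate number as a block. Over the 3 genotypes 0 genes were called by limma's F-test without a block, with 272 at an unadjusted p under 0.05. With the replicate number as a block 0 genes were called too, with 1121 at an unadjusted p under 0.05 and a smallest adjusted p of 0.684. If no gene differed, a share of about 0.05 of the 19938 genes would be expected at that unadjusted cutoff. The counts of 272 and 1121 are therefore not read as a difference between genotypes.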

How the data were processed

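The deposited values are linear intensities of 28856 probe sets on 6 single-colour Affymetrix arrays, made from 300 ng of total RNA per the labels' protocols. How the authors corrected background, normalized and summarised these intensities is not stated in what was used here. The arrays had medians of 76.5 to 79.6, and no 2 arrays were identical. Without detection calls, signal over background is unknown for dim genes, and the number of arrays limits the precision.

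Of the probe sets, 21789 carried 1 gene symbol in the platform annotation, 1621 several and 5446 none; the first kind was used, taking the probe set with the highest mean for the 999 genes with several, which left 19938 genes. Each array's genotype and number came from its title. limma 3.58.1 (R 4.3.3, lmFit and eBayes) was fitted to log2(intensity + 1). Genotype was a block (2 residual degrees of freedom), with Benjamini-Hochberg adjustment over all genes at 0.05. Differences of dim genes may be too small, since their signal over background is unknown. The script was tested on simulated data. Whether the numbers pair the samples was not checked apart from the comparison itself. In that comparison 61.5% of the summed squares followed the number. This share is the difference under study, so it cannot show whether the arrays of a pair are matched.

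The members and gene lists were chosen with earlier results of these data known, so lists carry no test and are described by counts and medians. Genes named are Foxd1, the delivered factors and sex markers, the 15 highest and 15 lowest called genes by size with the same sign in every pair (leaving out provisional names, large receptor families and small RNA genes), up to 4 members per list or role with the smallest p, and 3 genes per program by profile; others named beside them were chosen after their values were seen. Alternatives were no genotype block, a pseudocount of 32, quantile normalization, median centring, genes at or above the median level, the mean of probe sets, a trended robust fit, and leaving out pairs or arrays. Promoters are from RefSeq (GRCm38.p6); 15614 of the 19938 genes matched one by symbol. Figures were drawn with matplotlib 3.10.9.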

Additional observations from a re-analysis of the deposited data

Results flagged for a closer look

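Of the results described, 7 had pairs that moved in opposite directions, by at least 0.5 on the log2 scale each way for a gene and at least 0.15 for the median of a list. The differences between pairs were not tested, since each pair is 2 arrays. The gap between the highest and the lowest of the 3 pair differences was 8.15 for Xist, 6.70 for Uty, 6.43 for Eif2s3y and 4.74 for Kdm5d. The pair differences in the order Foxd1+/+, Foxd1+/- and Foxd1-/- were -3.83, 4.32 and 0.44 for Xist and 3.45, -3.25 and -0.13 for Uty. For Foxd1 the gap was 1.74, with pair differences of -0.71, 1.03 and 0.17, so the array Foxd1+/- number 2 was as bright as the brighter Foxd1+/+ array. For Acta2 the gap was 1.21, with pair differences of 0.57, -0.63 and -0.12. For the contractile list the gap between the pair medians was 0.505.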

How the results depend on the processing

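Of 151 named genes that passed the test, 0 changed sign under the alternatives that gave them a value. Genes named by size were chosen for the same sign in every pair, so leaving out a pair could not reverse them. The same holds for any other gene whose pairs share a sign. Where the trios of a gene do not overlap, leaving out 1 array could not reverse it either. For such genes the 0 under these settings follows from the choice and is no test. The 4 program medians kept their sign in all alternatives. Leaving out a pair or an array gave 0 to 1694 calls in all, 0 to 832 higher and 0 to 892 lower; interferon members called higher ranged from 0 to 61, fibroblast members from 0 to 26, pluripotency members called lower from 0 to 22 and cell cycle members from 0 to 32. The interferon median ranged from 0.50 to 0.98 when a pair or an array was left out, and was 0.95 among genes at or above the median level. Interferon members called higher were 33 without the genotype block, against 52. Cell cycle members called lower were 12 with a pseudocount of 32 and 43 both among genes at or above the median level and with a trended robust fit, against 24. The restriction to brighter genes lowers the number tested; the cause of the others was not tested. Centring arrays on their median gene shifted the median of all genes from -0.0016 to -0.03 and changed the calls from 965 higher and 798 lower to 833 and 1018. Without the genotype block the calls were 1073 higher and 1057 lower. Of 46 named genes that were not called, 19 changed sign under at least 1 alternative. When a pair or an array was left out, Foxd1 ranged from -0.79 to 1.12, Xist from -1.69 to 2.38, Usp9y from -0.011 to 0.029, Kdm5d from -1.15 to 1.22, Uty from -1.69 to 1.66, Eif2s3y from -1.61 to 1.60, Acta2 from -0.38 to 0.23, Cd3e from -0.14 to 0.041, H2-Oa from -0.014 to 0.063, Ifnb1 from -0.060 to 0.016, Nanog from -0.34 to 0.18, Oas1a from -0.12 to 0.36, Parp12 from -0.071 to 0.18, Ptprc from -0.042 to 0.11, Slc38a4 from -0.097 to 0.098, Stat3 from -0.16 to 0.030, Vim from -0.027 to 0.096 and Zfp42 from -0.0995 to 0.016. With centred arrays Cgas was -0.0036, Slc38a4 -0.014, Usp9y -0.023, Uty -0.0019 and Eif2s3y -0.016, and Slc38a4 was -0.012 with quantile normalization. For the genotype comparison, the replicate block left 0 genes called, as without the block. Calls rest on 2 residual degrees of freedom, and dim genes lack a measure of background.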

Other observations

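Genes that were looked up after their values were seen gave 3 further groups and some single genes. Of 21 imprinted genes measured, 9 were called higher on the arrays numbered 2 by limma and 0 lower, against 4.84% and 4.0% of all genes, with a median log2 difference of 0.20; the list was drawn up after values were seen, so its count supports nothing. Dlk1, which encodes an inhibitor of fat cell formation, had intensities of 218, 149.6 and 325 on the arrays numbered 1 and 434, 562 and 806 on the arrays numbered 2 and differed by 1.40 ± 0.18 (limma adjusted p = 0.0195). Mest had intensities of 398, 315 and 390.0 on the arrays numbered 1 and 895, 878 and 1061 on the arrays numbered 2 and differed by 1.36 ± 0.08 (limma adjusted p = 0.00533). Igf2, a growth factor of the embryo, had intensities of 971, 959 and 1268 on the arrays numbered 1 and 1705, 1576 and 2099.7 on the arrays numbered 2 and differed by 0.75 ± 0.05 (limma adjusted p = 0.00595). Meg3 (0.89), Peg10 (0.97), Nnat (0.90), Cdkn1c (0.59), Sgce (0.43) and Ppp1r9a (0.33) were the other called members. Other imprinted genes were not called: Igf2r had a difference of 0.09, Peg3 of -0.19 and Slc38a4 of 0.01.

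Of 20 genes known as targets or parts of the LIF, gp130 and STAT3 pathway, 12 were called lower and 1 higher, against 4.0% and 4.84% of all genes. Socs3, the feedback inhibitor of that pathway, had intensities of 791, 816 and 880.2 on the arrays numbered 1 and 279, 297 and 349 on the arrays numbered 2, with trios that do not overlap, and differed by -1.43 ± 0.05 (limma adjusted p = 0.00447). Bcl3 had intensities of 394, 346 and 386 on the arrays numbered 1 and 144, 149 and 192 on the arrays numbered 2 and differed by -1.22 ± 0.09 (limma adjusted p = 0.00759), Steap4 differed by -1.32 ± 0.06 (limma adjusted p = 0.00504) and Sbno2 by -0.81 ± 0.06 (limma adjusted p = 0.00706). The receptor subunit Il6st went the other way, with a difference of 0.33 ± 0.05 (limma adjusted p = 0.0337), and Stat3 had intensities of 1629, 1572 and 1788 on the arrays numbered 1 and 1454, 1516 and 1894 on the arrays numbered 2 with a difference of -0.04 that was not called. The list includes Saa3, Serpina3n, Hp and Tfcp2l1, which are described above, and it was drawn up because of them, so its count supports nothing.

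The MHC class II genes H2-Ab1, H2-Aa and Cd74 were brightest on 1 array, while H2-Oa, between 39.7 and 45.5 on all arrays, was not brightest there. H2-Ab1 had intensities of 50.8, 40.5 and 48.6 on the arrays numbered 1 and 105, 85.5 and 526 on the arrays numbered 2, H2-Aa of 30.2, 30.7 and 33.3 on the arrays numbered 1 and 50.7, 50.1 and 301 on the arrays numbered 2 and Cd74, the invariant chain, of 35.9, 36.7 and 36.3 on the arrays numbered 1 and 50.2, 60.8 and 387 on the arrays numbered 2. The Foxd1-/- array numbered 2 was the highest in each. Mpeg1, a pore-forming protein of macrophages that interferon also induces, had intensities of 93.4, 88.9 and 89.0 on the arrays numbered 1 and 187, 169.9 and 517 on the arrays numbered 2. None of these 4 was called by limma, where the adjusted p lay between 0.0676 (Mpeg1) and 0.205 (Cd74).

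Some genes of general functions differed with little spread within a trio. Eif2s2, a subunit of the initiation factor that carries the first tRNA, had intensities of 2043, 1941 and 1894 on the arrays numbered 1 and 887, 787 and 701 on the arrays numbered 2 and differed by -1.31 ± 0.06 (limma adjusted p = 0.00504). Nfatc2ip had intensities of 449, 406 and 443 on the arrays numbered 1 and 178, 186 and 177 on the arrays numbered 2 and differed by -1.26 ± 0.06 (limma adjusted p = 0.00504), and Taf13, a subunit of TFIID, differed by -1.37 ± 0.11 (limma adjusted p = 0.00825). Dmgdh, a mitochondrial enzyme that acts on dimethylglycine, the product of the Bhmt reaction, had intensities of 262, 244 and 216 on the arrays numbered 1 and 99.5, 98.3 and 68.8 on the arrays numbered 2 and differed by -1.44 ± 0.08 (limma adjusted p = 0.00533).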
